A study of Mus musculus with 5 samples.

Results

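Notch signalling passes between neighbouring cells, and 10 of its genes were followed here in the neonatal pancreas: the receptors Notch1, Notch2, Notch3 and Notch4, the ligands Dll1, Dll4, Jag1 and Jag2, and the target genes Hes1 and Hey1. They were found by the gene symbols of the array's annotation. All 10 were measured, each by 1 probe set, among 19938 named genes in all. The arrays held 3 Pdx1cKO pancreata and 2 control pancreata at postnatal day 1. Pdx1cKO mice carry Elastase-Cre and loxP-flanked Pdx1 alleles, so that Pdx1 is deleted in cells that use the elastase promoter, an exocrine promoter, and the proximal ducts escape deletion. The controls are labelled as not recombined and, by the title of the series, were litter mates, but the labels do not say which of the alleles they carried. The RNA was that of the whole organ, so a lower signal from fewer cells of a type and from less RNA per cell cannot be told apart.

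A Notch receptor is a membrane protein that is cut when a ligand on the next cell pulls on it, and its released intracellular part enters the nucleus, where it turns the DNA-binding protein RBPJ into an activator. The ligands are the Delta-like proteins (Dll1, Dll4) and the Jagged proteins (Jag1, Jag2). Among the first genes switched on are Hes1 and Hey1, which encode repressors of transcription. In the mouse pancreatic bud this pathway holds progenitors back from becoming endocrine or acinar cells, and Hes1 represses Neurog3, the gene that starts the endocrine programme. In blood vessels, Notch4 and Dll4 are known from endothelium, and Notch3 from pericytes and smooth muscle.

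The arrays differed in ways that could bear on any of the 10 genes. The intensity of Pdx1 itself, which the Cre deletes, was 48.4, 48.4 and 42.9 in Pdx1cKO pancreata 1, 2 and 3, against 67.9 and 113 in controls 1 and 2. All 9 measured acinar markers were lower in every Pdx1cKO array than in both controls, beside 11.7% of all genes. Their summed intensity was 12689 to 22162 in the Pdx1cKO arrays against 77245 and 53471 in controls 1 and 2. The summed intensity of 8 stomach genes was 476 to 518 in the Pdx1cKO arrays and 410 in control 1, against 11932 in control 2, so control 2 held stomach transcripts. That of 8 liver genes was 12605 to 32286 in the Pdx1cKO arrays against 3510 and 4287 in the controls. The sexes were not balanced, since Pdx1cKO mice 1 and 2 had a high Xist signal and the other 3 mice a high signal of Y-linked genes. Of all probe sets, 67.7% held an exact tie between arrays, and 7 of the 10 Notch genes had a tie at their middle value. How these ties arose is not given in the sources used here.

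None of the 10 genes passed the test. With limma over all 19938 genes, the adjusted p values of the 10 were 0.334 to 0.770, and 0.0% of all genes passed in either direction. At an unadjusted limma p under 0.05, 1 of the 10 was higher in Pdx1cKO pancreata (Notch3) and 0 were lower, beside 5.29% and 5.04% of all genes, or 10.3% in either direction. For Notch3, Dll1 and Jag2, 3 of the 10, every Pdx1cKO mouse was above both controls, and for 0 of the 10 was every one below. Over all genes the shares were 12.0% above and 11.7% below, 23.7% together. The median log2 fold change of the 10, Pdx1cKO minus control, was 0.16, against -0.0012 over all genes, with 7 of 10 values above 0, beside 47.0% of all genes. The per-array median of the 10, relative to each gene's mean over the arrays, was 0.038, 0.015 and 0.072 on the log2 scale in Pdx1cKO mice 1, 2 and 3, against -0.011 in control 1 and -0.22 in control 2. Control 2 lay farthest from the others.

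**Figure D1:**
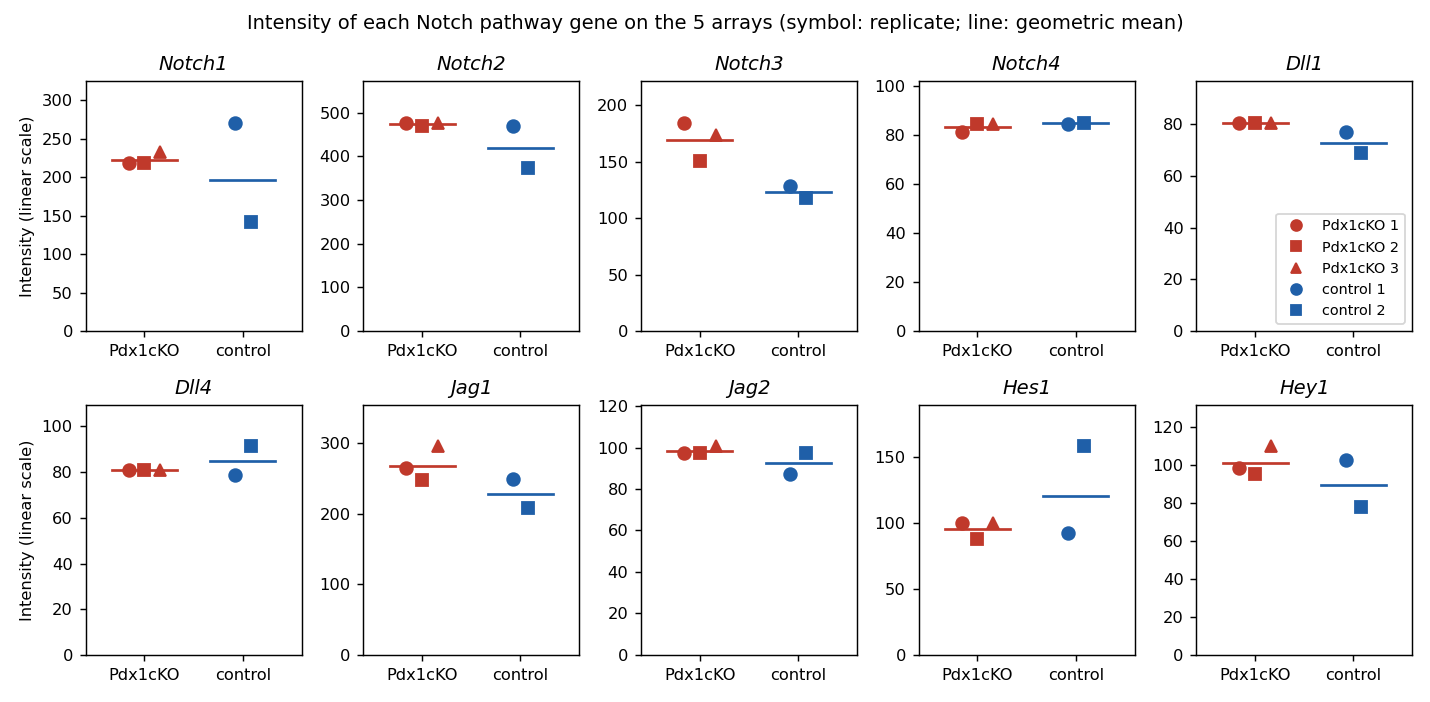
Intensity (linear scale, each axis from 0) of the 10 Notch pathway genes in 3 Pdx1cKO (red) and 2 control (blue) pancreata; the symbol gives the replicate and the line the geometric mean. Notch3 lies at 151 to 185 in Pdx1cKO and at 129 and 118 in the controls, and control 2 stands apart for Notch1 and Hes1.

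Among the receptors, Notch3 had the smallest p. Notch3 is the receptor best known from the muscle cells and pericytes around vessels. Its intensity was 185, 151 and 173 in Pdx1cKO pancreata 1, 2 and 3, against 129 and 118 in controls 1 and 2. All 3 Pdx1cKO values lay above both controls. The log2 fold change was 0.46 (standard error 0.109, 95% confidence interval 0.14 to 0.77), or 1.37 times the control level. The SD of the log2 values was 0.148 in the Pdx1cKO mice (n = 3) and 0.0934 in the controls (n = 2). The unadjusted limma p was 0.0163 and the adjusted p = 0.334, so Notch3 did not pass over all genes. It is also 1 of the 3 genes without a tied value. With control 1 left out the log2 fold change was 0.52, and with control 2 left out 0.39. With a covariate for sex the log2 fold change was 0.49. That fit compares Pdx1cKO mouse 3 alone with both controls, because Pdx1cKO mice 1 and 2 had a high Xist signal.

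The promoter of Notch3 is shown because Notch3 alone of the 10 genes was at an unadjusted p under 0.05. It is given from RefSeq in build GRCm38.p6 at chr17:32166841-32167140 on the minus strand, from 250 bases before the start of transcription to 50 bases after it. Capitals mark the letters CACNAG or their reverse complement CTNGTG, the N-box that HES proteins can bind.
Notch3: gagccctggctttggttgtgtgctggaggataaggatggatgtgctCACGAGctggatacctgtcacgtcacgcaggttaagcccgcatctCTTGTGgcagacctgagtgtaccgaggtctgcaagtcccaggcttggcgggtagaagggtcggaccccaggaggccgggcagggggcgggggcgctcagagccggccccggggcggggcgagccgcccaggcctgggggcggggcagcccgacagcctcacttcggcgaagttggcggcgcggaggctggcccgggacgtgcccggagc
The N-box letters stand 204 and 159 bases before the start. They occur in 42.5% of the 32851 promoters of this length in the table, searched on both strands, and in 5 of the 9 promoters listed for 8 of the 10 genes (Notch1, Notch2, Notch3, Dll1 and Dll4). The letters TGGGAA or TTCCCA, the core of an RBPJ site, are in 25.6% of all promoters and in 0 of those 9. A match or its absence in this window describes only the letters.

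Genes of pericytes and smooth muscle were read beside Notch3. Of the 10 on that list, 3 were higher and 0 lower in Pdx1cKO at an unadjusted limma p under 0.05. Over all genes the shares were 5.29% and 5.04%. The median log2 fold change of the list was 0.16. Pdgfrb, a growth factor receptor of pericytes, had intensities of 360, 288 and 327 in Pdx1cKO pancreata 1, 2 and 3, against 226 and 177 in the controls (log2 fold change 0.69, adjusted p = 0.324). Abcc9, a potassium channel subunit of pericytes, had a log2 fold change of 0.44 and Cspg4, the NG2 proteoglycan, 0.14. Both also lay above the controls in all 3 mice. The contractile genes Acta2, Myh11 and Tagln overlapped between the groups, at 0.014, -0.56 and -0.14. So did Rgs5 and Des, at 0.035 and 0.17. Mcam and Kcnj8 lay above both controls in all 3 mice, at 0.40 and 0.47. The summed intensity of the list was 6051 to 9250 in Pdx1cKO arrays against 6259 and 8670 in the controls. The part of these cells in the Notch3 difference was not tested.

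**Figure D2:**
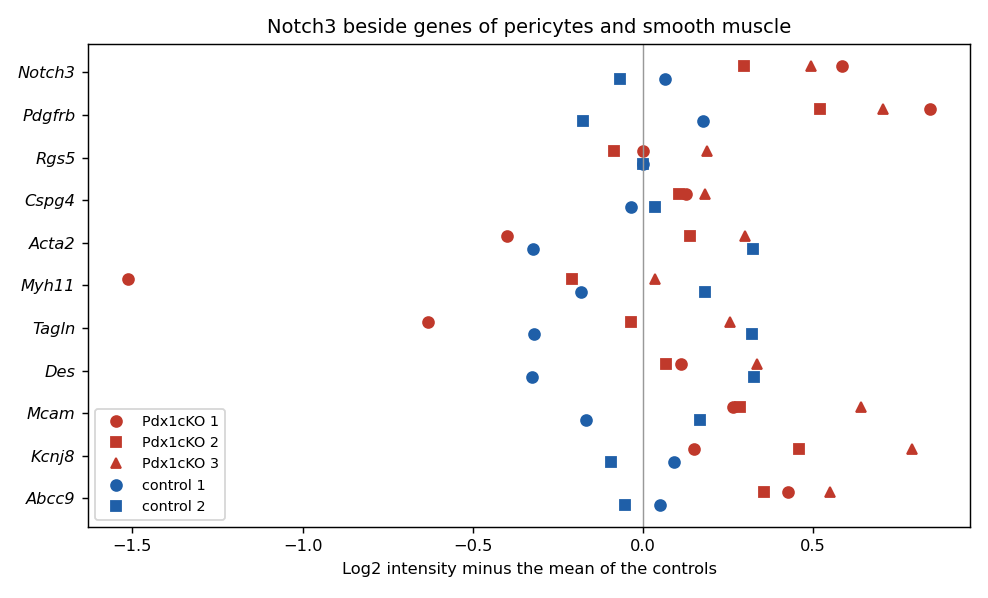
Log2 intensity minus the control mean for Notch3 and 10 genes of pericytes and smooth muscle (red, Pdx1cKO; blue, control; the symbol gives the replicate). Notch3, Pdgfrb, Cspg4, Mcam, Kcnj8 and Abcc9 lie to the right of both controls in all 3 Pdx1cKO arrays, as do 12.0% of all genes. Acta2, Myh11, Tagln, Des and Rgs5 overlap.

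The other receptors did not separate the groups. Notch1, a receptor of progenitors and many other cells, had intensities of 218, 218 and 232 in the Pdx1cKO pancreata, against 271 in control 1 and 142 in control 2. The Pdx1cKO values lay between the controls, which were 0.93 apart on the log2 scale. The log2 fold change was 0.18 (standard error 0.314, 95% confidence interval -0.72 to 1.08, adjusted p = 0.770). Notch2, which is also expressed in pancreatic epithelium, had 477, 470 and 476 in Pdx1cKO pancreata, against 470 in control 1 and 374 in control 2. Its log2 fold change was 0.18 (standard error 0.111, 95% confidence interval -0.14 to 0.50, adjusted p = 0.515). Control 1 was level with the Pdx1cKO mice and control 2 alone was lower.

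Notch4, the endothelial receptor, had the log2 fold change closest to 0 of the 10. Its intensity was 81.4, 84.4 and 84.4 in Pdx1cKO pancreata, against 84.4 and 85.0 in the controls, a log2 fold change of -0.023 (standard error 0.0230, 95% confidence interval -0.089 to 0.044, adjusted p = 0.624). A further 6 probe sets that the annotation gives to Notch4 together with another gene were left out. The same value in Pdx1cKO mice 2 and 3 and in control 1 is 1 of the ties named above, and without detection calls it is unknown whether this signal lay above background.

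Among the ligands, Dll1 and Jag1 had small positive differences. Dll1, the Delta-like ligand of pancreatic progenitors, had 80.5 in all 3 Pdx1cKO pancreata, the same value to the last digit, against 76.8 and 68.7 in the controls. Every Pdx1cKO value lay above both controls. The log2 fold change was 0.15 (standard error 0.0550, 95% confidence interval -0.0091 to 0.31, unadjusted p = 0.0586, adjusted p = 0.515). Jag1, the Jagged ligand of ducts and vessels, had 264, 248 and 296 in Pdx1cKO pancreata, against 249 and 209 in the controls. Pdx1cKO mouse 2 lay just below control 1, so the groups overlapped. The log2 fold change was 0.24 (standard error 0.123, 95% confidence interval -0.12 to 0.59, adjusted p = 0.515).

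Jag2 and Dll4 were nearly level. Jag2, the other Jagged ligand, had 97.6, 97.6 and 100.5 in Pdx1cKO pancreata, against 87.3 in control 1 and 97.6 in control 2. The groups did not overlap by the digits of the file, but control 2 lay within rounding of Pdx1cKO mice 1 and 2. The log2 fold change was 0.095 (standard error 0.0573, adjusted p = 0.515). Dll4, the ligand of arterial and sprouting endothelium, had 80.9 in all 3 Pdx1cKO pancreata, again an exact tie, against 78.6 and 91.2 in the controls. The Pdx1cKO value lay between the controls, with a log2 fold change of -0.067 (standard error 0.0728, 95% confidence interval -0.28 to 0.14, adjusted p = 0.644).

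Endothelial markers were read beside Notch4 and Dll4, and 0 of 12 passed over all genes. In 7 of the 12 all 3 Pdx1cKO mice lay above both controls, beside 12.0% of all genes, and 3 were higher at an unadjusted limma p under 0.05, with a median log2 fold change of 0.35. Control 2 was the lowest array in all 12. Egfl7, a secreted endothelial protein, was at 0.66 and Cdh5, the cadherin of endothelial junctions, at 0.40 (adjusted p = 0.183 and 0.396). Kdr, a VEGF receptor, was at 0.48 and overlapped between the groups, with 0.87 against control 2 alone and 0.084 against control 1 alone. The summed intensity was 3419 to 4063 in Pdx1cKO arrays against 3208 and 2382 in the controls. Notch4 and Dll4, at -0.023 and -0.067, were not higher beside them. Whether these differences between genes were larger than the error was not tested.

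Neither target gene separated the groups. Hes1, the repressor that keeps pancreatic progenitors undifferentiated, had 99.9, 88.4 and 99.9 in Pdx1cKO pancreata, against 92.5 in control 1 and 158 in control 2. Control 1 lay within the range of the Pdx1cKO mice and control 2 lay above all others. The log2 fold change was -0.34 (standard error 0.270, 95% confidence interval -1.11 to 0.44, adjusted p = 0.539). Hey1, a related repressor known from vessels and heart, had 98.35, 94.96 and 110 in Pdx1cKO pancreata, against 103 and 77.7 in the controls. The groups overlapped, with a log2 fold change of 0.17 (standard error 0.154, 95% confidence interval -0.27 to 0.62, adjusted p = 0.573).

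**Figure D3:**
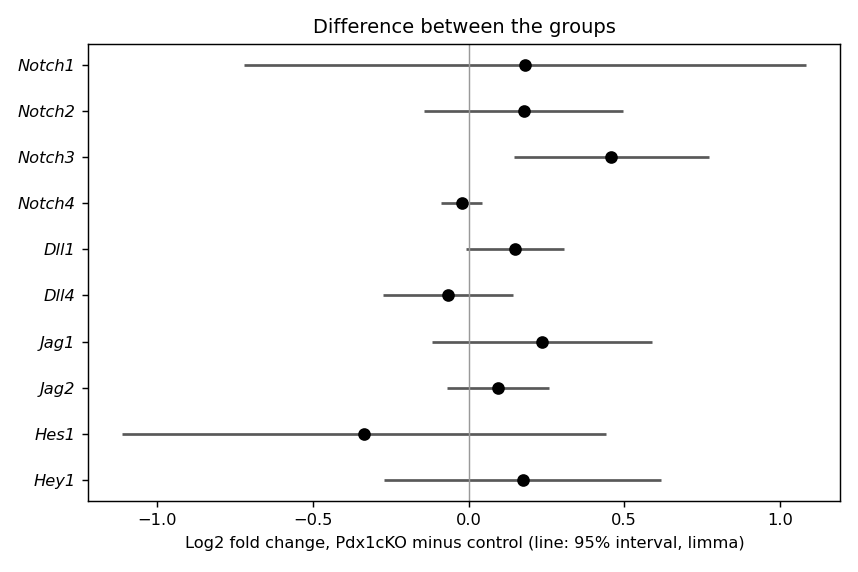
Points give the log2 fold change of each of the 10 genes, Pdx1cKO minus control, and lines its limma 95% confidence interval. The interval of Notch3 alone, 0.14 to 0.77, lies wholly on 1 side of 0, and those of Notch1 and Hes1 are the widest.

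The choice of control decided the sign of 4 of the 10 differences. Control 2, the array with stomach transcripts, was the lowest of the 5 arrays in 6 of the 10 genes and the highest in 3, against 25.9% of all genes in which it was lowest and 48.0% in which it was lowest or highest. Against control 2 alone, the log2 fold change of Hes1 was -0.72 and that of Notch1 0.65. Against control 1 alone, Hes1 was at 0.053 and Notch1 at -0.28. Hey1 was likewise at 0.38 against control 2 and -0.028 against control 1, and Dll4 at -0.17 and 0.040. The remaining 6 genes kept their sign against either control, but most of them not their size. Notch2 was at 0.34 against control 2 and 0.013 against control 1, Dll1 at 0.23 and 0.069, and Jag1 at 0.36 and 0.11. Jag2 went the other way, at 0.014 against control 2 and 0.17 against control 1, while Notch4 was at -0.027 and -0.018. The median over the 10 was 0.29 against control 2 and 0.046 against control 1. The part of the stomach transcripts in these differences was not tested.

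Adjusted calls appeared only where 1 control was left. Without control 1, limma gave an adjusted p = 0.00133 for Dll1, 0.00162 for Dll4, 0.00653 for Notch2 and 0.0265 for Notch1. Without control 2, it gave an adjusted p = 0.00515 for Dll1 and 0.0124 for Dll4, while Notch1 was at 0.105. A single control carries no spread, so such a fit takes its spread from the Pdx1cKO mice, whose values for Dll1 and Dll4 were the same. Of the 10 genes, 2 had 1 value shared by the 3 Pdx1cKO mice, beside 15.7% of all genes.

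**Figure D4:**
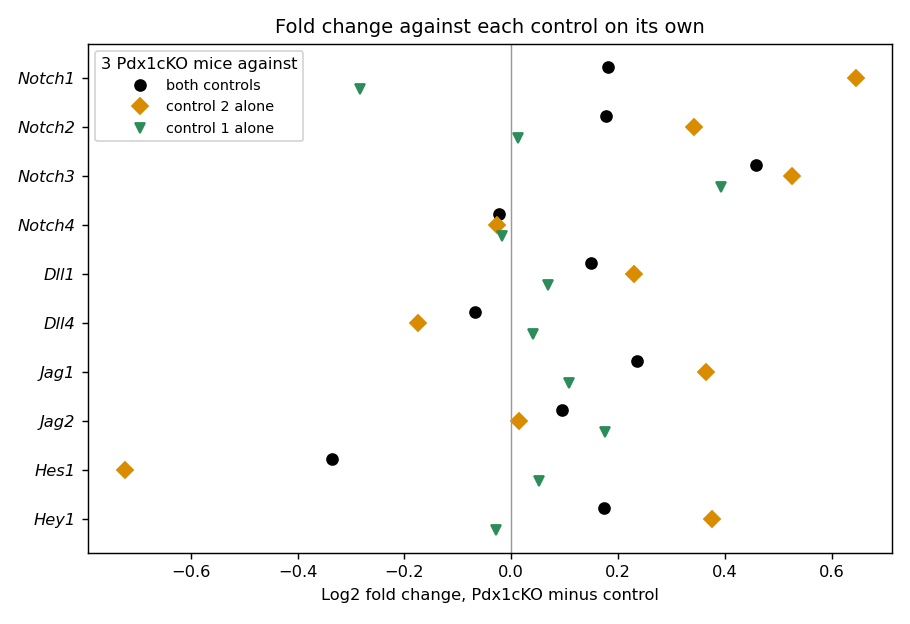
Log2 fold change of each gene in the 3 Pdx1cKO mice against both controls (black circles), control 2 alone (orange diamonds) and control 1 alone (green triangles). Notch3 stays between 0.39 and 0.52, whereas Notch1, Hes1, Hey1 and Dll4 lie on both sides of 0.

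The rest of the pathway was read from a list of 57 further genes, of which 54 were measured. None passed over all genes in the limma fit. At an unadjusted limma p under 0.05, 6 were higher and 5 lower in Pdx1cKO pancreata, beside 5.29% and 5.04% of all genes. The groups did not overlap in 9 genes that were higher and 8 that were lower, beside 12.0% and 11.7% of all genes. Over the 54 genes the log2 fold changes had a median of -0.012. By far the most negative value among them was that of Rbpjl, at -1.20.

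Among other ligands and ligand-like proteins, Dlk1, an imprinted Delta-like protein that can hinder Notch, had 4313, 4245 and 4081 in Pdx1cKO pancreata, against 3342 and 2793 in the controls (log2 fold change 0.46, adjusted p = 0.284). Dner, a neuronal ligand, was at 0.44, and Dll3 and Dlk2 were at -0.028 and -0.036. Among the enzymes that put sugars on the receptor, the fucose-extending enzyme Mfng was at 0.10 and Poglut1, which adds glucose, at 0.34. Poglut1 was at 0.62 against control 2 alone and 0.059 against control 1 alone. With 1 control left, Dlk1 had an adjusted p = 0.0201 against control 2 and Mfng an adjusted p = 0.0169 against control 1. Of 9 measured genes for receptor cleavage, 1 was lower at an unadjusted limma p under 0.05, beside 5.04% of all genes. This was Psenen, a subunit of gamma-secretase, with 1045, 973 and 951 in Pdx1cKO pancreata, against 1227 and 1252 in the controls (log2 fold change -0.33, adjusted p = 0.236). Ncstn, which encodes the subunit nicastrin, was at -0.12, with -0.20 against control 2 alone and -0.046 against control 1 alone. The ubiquitin ligases that start ligand endocytosis, Mib1, Mib2, Neurl1a and Neurl1b, were at -0.062, 0.073, 0.00085 and 0.087.

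Among genes of Notch turnover and inhibition, Numbl, a relative of the endocytic adaptor Numb, had 307, 301 and 334 in Pdx1cKO pancreata, against 226 and 207 in the controls. Its log2 fold change was 0.53 (standard error 0.0698, adjusted p = 0.215), and all 3 Pdx1cKO values lay above both controls. Dtx3, a Deltex ubiquitin ligase, was at 0.32 with an adjusted p = 0.291. Of 8 other HES and HEY genes and Nrarp, 0 were at an unadjusted limma p under 0.05 in either direction, beside 10.3% of all genes. Hey2 was at 0.27, with 0.15 against control 2 alone and 0.39 against control 1 alone. Hes2 was at -0.12, with -0.22 against control 2 alone and -0.016 against control 1 alone.

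In the nuclear complex, the 2 DNA-binding partners were read side by side. Rbpj, the common partner of all 4 receptors, had 85.2, 85.2 and 88.2 in Pdx1cKO pancreata, against 85.8 and 80.8 in the controls, a log2 fold change of 0.049 (adjusted p = 0.515). Rbpjl, its acinar paralog, which takes the place of RBPJ in the PTF1 complex and does not bind Notch, had 76.2, 83.0 and 89.0 in Pdx1cKO pancreata, against 253 and 142 in the controls. All 3 Pdx1cKO values lay below both controls, and the log2 fold change was -1.20 (standard error 0.291, unadjusted p = 0.0171, adjusted p = 0.342). With control 1 as the only control it was -1.62 (adjusted p = 0.0209), and with control 2 as the only control -0.78 (adjusted p = 0.0666), so the call rested on which single control was kept. Ctbp1, a corepressor, was at 0.29 (adjusted p = 0.444).

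The promoter of Rbpjl is shown because that gene had the most negative log2 fold change on the pathway list and is known in the mouse to be switched on by the PTF1 complex, of which first RBPJ and then RBPJL is a part. It is given from RefSeq in build GRCm38.p6 at chr2:164402944-164403243 on the plus strand. Capitals mark the RBPJ core TGGGAA and the E-box letters CANNTG, to which PTF1A can bind with a partner protein.
Rbpjl: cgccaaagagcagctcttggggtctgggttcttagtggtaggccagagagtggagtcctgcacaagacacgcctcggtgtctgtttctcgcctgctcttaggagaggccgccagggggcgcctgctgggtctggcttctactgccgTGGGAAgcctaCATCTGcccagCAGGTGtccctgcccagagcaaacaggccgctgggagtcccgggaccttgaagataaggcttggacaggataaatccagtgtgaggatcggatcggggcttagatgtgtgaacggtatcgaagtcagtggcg
The RBPJ core begins 104 bases before the start and the E-boxes CATCTG and CAGGTG begin 93 and 82 bases before it. The core is in 25.6% of all promoters of the table, CANNTG in 72.3% and both in 19.0%.

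Of 5 measured genes that Notch is known to act on in the pancreas, 0 passed over all genes. At an unadjusted limma p under 0.05, 3 were lower and 1 was higher, beside 5.04% and 5.29% of all genes. Sox9, a factor of ducts and progenitors, had 172, 138 and 157 in Pdx1cKO pancreata, against 262 and 229 in the controls (log2 fold change -0.66, adjusted p = 0.279). Ptf1a, the acinar factor that binds RBPJ and RBPJL, was at -0.54 and Nkx6-1, a factor of the trunk and beta cells, at -0.27 (adjusted p = 0.386 and 0.411). Against control 1 alone Ptf1a was at -0.74 (adjusted p = 0.0464), and against control 2 alone at -0.33 (adjusted p = 0.154). Neurog3, which Hes1 represses, had 39.6, 41.5 and 34.1 in Pdx1cKO pancreata, against 41.6 and 61.7 in the controls (log2 fold change -0.41, adjusted p = 0.515). As for Hes1, control 2 held the highest value, and Neurog3 was at -0.69 against control 2 alone and -0.12 against control 1 alone. Cdkn1c, a cell cycle inhibitor, had 821, 823 and 1018 in Pdx1cKO pancreata, against 518 and 640 in the controls (log2 fold change 0.62, adjusted p = 0.356). All 7 measured genes of duct epithelium and all 9 of acinar cells had negative log2 fold changes in the same arrays, with medians of -0.80 and -2.07. Of the 7 duct genes, 4 lay below both controls in every Pdx1cKO mouse, beside 11.7% of all genes. Control 2 was the highest array in 5 of the 7. Krt19, whose value is the duct median, had 814, 947 and 900 in Pdx1cKO pancreata, against 949 in control 1 and 2516 in control 2. The part of duct and acinar cells in these values was not tested.

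**Figure D5:**
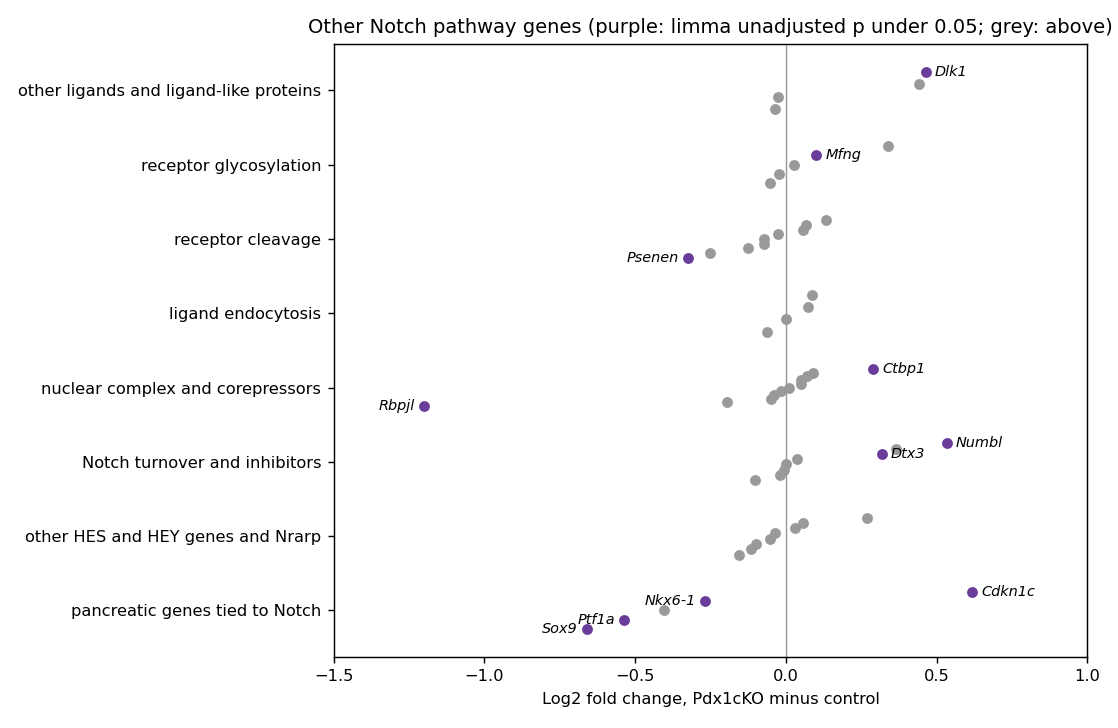
Log2 fold change, Pdx1cKO minus control, of the 54 other Notch pathway genes in 8 groups (each point a gene; purple, limma unadjusted p under 0.05; grey, above). Most points lie near 0, with Rbpjl at -1.20, Sox9 at -0.66 and Cdkn1c at 0.62 farthest out.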

How the data were processed

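RNA of whole pancreas from 3 Pdx1cKO and 2 control mice was hybridised to Mouse Gene 1.0 ST arrays, 1 per sample. The authors deposited linear intensities of 28853 probe sets from GeneSpring GX. How background, normalization and probe summary were handled is not given in the sources used here, and no detection calls were used. The array medians were 61.0 to 61.9. Log2 was taken with no pseudocount. The 21789 probe sets with 1 symbol in the platform annotation were averaged into 19938 genes, and 1621 with several symbols and 5443 with none were left out. Groups came from the sample titles, and replicates are separate samples whose animals the labels do not describe, so that p-values measure the spread between these samples.

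Pdx1cKO was compared with control by limma 3.58.1 (lmFit and eBayes) in R 4.3.3, two-sided, with Benjamini-Hochberg adjustment over all genes at 0.05. The step was tested on simulated data. The 10 genes and the lists were chosen with earlier results of these data known. Named beside them in each group of pathway genes were the 2 with the smallest p (all where a group had 4 or fewer). Rbpj, Rbpjl, the pancreatic genes and up to 3 markers per list were also named. Acta2, Myh11, Tagln, Rgs5, Des, Mcam, Kcnj8 and Krt19 were added after their values were seen. Some listed genes were not analysed here. Python 3.11.15 with pandas 2.3.3 joined the tables, and promoters came from RefSeq. Alternatives were 2 scalings, 2 filters on dim genes, 2 treatments of probe sets, the methods' t-test (Student), array weights, eBayes with trend and robust, the replicate number as a block, a sex covariate and leaving out each sample. The number of arrays limits the precision.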

Additional observations from a re-analysis of the deposited data

How the results depend on the processing

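For the 10 Notch genes, 160 log2 fold changes were computed under 16 alternatives, and 4 of them changed sign, all without control 2: Notch1 (-0.28), Dll4 (0.040), Hes1 (0.053) and Hey1 (-0.028). At the other end of leaving out 1 mouse they were 0.65, -0.17, -0.72 and 0.38 without control 1. Not all of the 160 could differ from the main fit. Each gene was fitted on its own and had 1 probe set, so several alternatives repeated its main log2 fold change. These were the 2 filters on dim genes, the 2 treatments of probe sets, the t-test and eBayes with trend and robust. The replicate block gave the same log2 fold changes as leaving out Pdx1cKO mouse 3. The sex covariate gave those of Pdx1cKO mouse 3 alone against both controls. Notch3 stayed positive in all 16, at 0.39 to 0.54, with an unadjusted p under 0.05 in 11 and adjusted p values of 0.185 to 0.925. At that unadjusted p, 0 of the 10 were higher with the sex covariate and 0 without Pdx1cKO mouse 3. Leaving out 1 mouse at a time gave 0 to 1 of the 10 called lower and 0 to 3 called higher, 0 to 2 lower and 0 to 3 higher at an unadjusted p under 0.05, and a median log2 fold change of 0.046 to 0.29. All the calls came without a control. Over all genes it gave 0 to 2072 called lower and 0 to 1604 called higher, and 638 to 3694 lower and 711 to 2958 higher at an unadjusted p under 0.05. The calls were 1783 lower and 1604 higher without control 1, and 2072 lower and 995 higher without control 2. Genes lower at an unadjusted p under 0.05 numbered 501 above the median level, 391 with array weights (241 higher) and 605 with the replicate block. The methods' t-test called 7 genes lower and 3 higher after Benjamini-Hochberg adjustment, 0 of the 10 among them, and at an unadjusted p under 0.05 it gave 807 lower and 734 higher, with 1 of the 10 higher. For the other pathway genes, whose alternatives were chosen after seeing the data, those at an unadjusted p under 0.05 were 2 lower and 3 higher with array weights, 2 lower with the replicate block and 1 lower with the sex covariate. Leaving out 1 mouse gave 2 to 18 lower and 4 to 15 higher, and 0 to 13 called, with 7 called without control 1 and 13 without control 2. Among named genes near 0, Neurl1a was at -0.026 with median scaling, -0.027 with quantile normalization, -0.013 with the sex covariate and -0.0067 to 0.0080 leaving out 1 mouse, lowest without Pdx1cKO mouse 2. Rbpj was at -0.0079 by 1 of its probe sets, and Dlk2 at 0.014 with array weights, 0.053 with the replicate block and -0.12 to 0.053 leaving out 1 mouse, highest without Pdx1cKO mouse 3. Mib1 was at 0.13 with the sex covariate, 0.0035 without Pdx1cKO mouse 1, 0.023 without control 1 and -0.16 without Pdx1cKO mouse 3. The cause of these shifts was not tested. Replicate numbers did not pair the samples (correlation of deviations 0.033 and -0.0030 for numbers 1 and 2), and with the replicate block Notch3 was at 0.44 (adjusted p = 0.653). Signal over background is unknown, which limits what can be said of Notch4, Dll1, Dll4, Jag2 and other dim genes.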

Other observations

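Markers of other cell types gave these values in the same arrays. Over all genes, 12.0% lay above both controls in every Pdx1cKO mouse and 11.7% lay below. All 8 genes of fibroblastic mesenchyme had positive log2 fold changes, with a median of 0.28 and 4 above both controls in every Pdx1cKO mouse, and a summed intensity of 22162 to 25108 in Pdx1cKO arrays against 22650 and 16825 in the controls. Control 2 was the lowest array in all 8. All 6 measured islet genes lay below both controls in every Pdx1cKO mouse, with a median of -0.85. All 9 genes of granulocytes and myeloid progenitors and all 5 measured erythroid genes lay above both controls in every Pdx1cKO mouse, with medians of 2.23 and 1.69, and so did 4 of 5 measured lymphocyte genes. The summed intensity of 6 intestinal genes was 244 to 301 in Pdx1cKO arrays, against 254 in control 1 and 813 in control 2. None of these genes passed over all genes in the limma fit.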
